A study of Mus musculus with 12 samples.

Results

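Induced MEL cells that carried full-length LDB1 were compared with induced MEL cells in which LDB1 was low or altered, and the genes described are those whose RNA separated the lines completely. MEL cells are leukemic erythroid precursors of the mouse that mature partway toward red cells when induced. All 12 libraries of the study came from induced MEL cells and hold polyadenylated RNA. The full-length side had 6 libraries, 3 from the unmodified line (control) and 3 from cells with LDB1 knocked down that also carried a full-length Ldb1 construct (FL). The low-or-altered side had 6 libraries, 3 from cells with LDB1 knocked down (KD) and 3 from knocked-down cells that carried the Ldb1 delta 4/5 construct (delta45). FL, KD and delta45 therefore share the knockdown, and control lacks both knockdown and construct. The inducer, the means of knockdown, the promoter of the constructs, the residues that delta 4/5 removes and whether a line was 1 clone were not given in the sources used here.

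A gene was counted as separated when its CPM (read counts scaled to a common library total) in all 6 libraries of one side lay above those in all 6 libraries of the other. CPM was taken on library sizes scaled by TMM, which adjusts for libraries dominated by a few abundant RNAs, and again on plain totals of gene reads. Of 37991 genes in the files, 12837 had enough reads to be tested. On the TMM scale 648 genes (5.05% of those tested) were higher and 828 genes (6.45%) were lower in every full-length library. On plain totals the counts were 378 higher (2.94%) and 1324 lower (10.3%). The TMM factors were 0.8706 to 0.8802 in FL and 1.002 to 1.114 in the other lines, and plain totals moved the median log2 change of all genes by -0.161. Both scales together gave 373 higher genes (2.91%) and 824 lower genes (6.42%), which is 9.32% of the tested genes. Every gene named below as separated met both scales, unless the sentence says that it did so on the TMM scale only.

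Log2 changes are the mean of control and FL less the mean of KD and delta45, from edgeR's quasi-likelihood test with Benjamini-Hochberg adjustment over all genes tested, given with their standard error. That test called 7110 genes at an adjusted p under 0.05 (55.4%), 3403 higher (26.5%) and 3707 lower (28.9%). On plain totals it called 2369 higher and 4951 lower. With 1 mean for each side, so that the spread between lines enters the error, it called 1285 and 1380. That fit still counts the libraries of a line as separate replicates of a side. Counts of separated members of a gene list read against 5.05% higher and 6.45% lower over all genes tested, counts of called members against 26.5% and 28.9%, and a list's median log2 change against -0.0177. Separation and this test read the same contrast, so for separated genes the log2 change and its adjusted p are descriptions.

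LDB1 binds LIM-domain proteins and dimerizes, and in erythroid cells it joins a complex of GATA1, TAL1, LMO2 and an E protein that sits on DNA. It is known for bringing the locus control region of the beta-globin genes into contact with their promoters. Red cell maturation is known for a rise of globin, heme synthesis and membrane skeleton genes while cells leave the cell cycle.

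Ldb1 itself did not separate the sides. Its level was 743, 772 and 637 CPM in control, 3690, 3410 and 3210 CPM in FL, 159, 132 and 97 CPM in KD, and 750, 781 and 763 CPM in delta45. KD was lower than every other line, FL was higher than every other line, and delta45 overlapped control. In edgeR the control and delta45 levels of Ldb1 differed by a log2 of -0.09 ± 0.151 (adjusted p = 0.607). The low-or-altered side thus held 1 line with low Ldb1 RNA and 1 line with Ldb1 RNA in the range of control. Reads of the constructs and of the chromosomal gene cannot be told apart in a count per gene.

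Gene reads ranged from 8783970 to 20464959 per library. Alignments to several places made up 42.264 to 53.314% of all tallied counts on the full-length side and 38.694 to 48.513% on the other. That tally may count a read more than once, so these are not shares of reads. Erythroid markers were abundant on both sides, the summed level of 10 markers being 12200 to 40200 CPM in the full-length libraries and 2990 to 5510 CPM in the others. The sum of 5 megakaryocyte markers was 825 to 2770 CPM against 133 to 801 CPM. Of these markers only Itga2b separated, at 719 to 2200 against 103 to 279 CPM, while Pf4, Itgb3, Gp9 and Tubb1 overlapped. Marker sums for myeloid, lymphoid, mast, and stromal and endothelial cells, of 3 to 5 genes each, reached at most 45.2 CPM in any library. Ms4a2 (mast cells) and Col1a2 (stromal cells) had 0 reads. Some single genes of the wider lists for these types exceeded that level. Cebpb (myeloid) was 29.6 to 135 against 21.4 to 170 CPM, and Srgn (mast cells) 71.6 to 113 against 76.5 to 115 CPM. In bulk RNA, fewer cells of a type and less RNA per cell cannot be told apart. Nothing in the labels says that replicates were separate cultures, so p-values measure the spread between these libraries, which may be technical.

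Promoters of separated genes are shown first because the LDB1 complex is known to occupy GATA motifs. The motif searched was GATA with an adenine or thymine just before it and an adenine or guanine just after it, on either strand. The sequences are the 250 bases before the start in RefSeq's GRCm38.p6, a build other than the authors' mm9. Among 40 separated genes taken from the erythroid and LDB1 lists and from the widest margins, 32 had a promoter entry and 8 of those held a match, in capitals here. Over all tested genes with an entry, 17.2% held a match in these 250 bases. Of the 5 genes that were higher in the full-length lines, Hba-a1 (chr11:32283422-32283671, plus strand) encodes an adult alpha globin and Hbb-bs (chr7:103827929-103828178, minus strand) an adult beta globin. Alas2 (chrX:150547167-150547416, plus strand) encodes the first enzyme of erythroid heme synthesis, Add2 (chr6:86028431-86028680, plus strand) a membrane skeleton adducin, and Csf2rb2 (chr15:78305722-78305971, minus strand) a cytokine receptor subunit.
Hba-a1: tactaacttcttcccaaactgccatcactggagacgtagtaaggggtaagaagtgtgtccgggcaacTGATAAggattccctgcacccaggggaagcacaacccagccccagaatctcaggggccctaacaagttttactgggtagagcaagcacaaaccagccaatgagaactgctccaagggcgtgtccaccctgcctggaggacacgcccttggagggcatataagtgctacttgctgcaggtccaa
Hbb-bs: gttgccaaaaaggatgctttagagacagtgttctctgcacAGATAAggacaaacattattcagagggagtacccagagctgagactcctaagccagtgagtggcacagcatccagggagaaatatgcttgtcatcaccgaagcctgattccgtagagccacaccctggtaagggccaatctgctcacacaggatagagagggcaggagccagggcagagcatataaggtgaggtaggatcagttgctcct
Alas2: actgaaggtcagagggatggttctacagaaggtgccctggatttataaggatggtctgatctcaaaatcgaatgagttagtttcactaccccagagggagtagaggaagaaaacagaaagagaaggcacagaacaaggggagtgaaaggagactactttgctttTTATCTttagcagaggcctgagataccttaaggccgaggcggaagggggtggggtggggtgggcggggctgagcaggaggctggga
Add2: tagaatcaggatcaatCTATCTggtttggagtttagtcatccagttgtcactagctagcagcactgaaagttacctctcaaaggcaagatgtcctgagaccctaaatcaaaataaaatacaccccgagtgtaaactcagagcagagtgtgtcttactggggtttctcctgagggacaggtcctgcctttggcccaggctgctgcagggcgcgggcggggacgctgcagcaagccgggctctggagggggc
Csf2rb2: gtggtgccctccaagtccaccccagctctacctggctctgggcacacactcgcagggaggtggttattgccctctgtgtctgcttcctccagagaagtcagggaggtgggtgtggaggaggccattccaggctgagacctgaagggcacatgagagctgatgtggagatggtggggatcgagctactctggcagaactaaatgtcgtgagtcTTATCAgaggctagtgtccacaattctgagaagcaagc
The match began 183 bases before the start in Hba-a1, 210 in Hbb-bs, 86 in Alas2, 234 in Add2 and 38 in Csf2rb2. The 3 lower genes with a match were Nasp (chr4:116627952-116628201, minus strand), which encodes a histone chaperone, Mthfd1 (chr12:76254982-76255231, plus strand), an enzyme of folate metabolism, and Trip13 (chr13:73937768-73938017, minus strand), an ATPase of the mitotic checkpoint.
Nasp: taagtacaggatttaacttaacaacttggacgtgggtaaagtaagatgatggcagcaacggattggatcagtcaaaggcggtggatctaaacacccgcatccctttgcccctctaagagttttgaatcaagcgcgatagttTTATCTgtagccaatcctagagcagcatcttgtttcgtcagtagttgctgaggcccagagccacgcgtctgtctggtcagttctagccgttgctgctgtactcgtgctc
Mthfd1: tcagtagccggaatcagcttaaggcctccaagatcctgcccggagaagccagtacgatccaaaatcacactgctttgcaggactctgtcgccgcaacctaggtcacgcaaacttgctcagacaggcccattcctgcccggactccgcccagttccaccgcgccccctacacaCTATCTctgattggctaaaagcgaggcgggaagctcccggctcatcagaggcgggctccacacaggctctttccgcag
Trip13: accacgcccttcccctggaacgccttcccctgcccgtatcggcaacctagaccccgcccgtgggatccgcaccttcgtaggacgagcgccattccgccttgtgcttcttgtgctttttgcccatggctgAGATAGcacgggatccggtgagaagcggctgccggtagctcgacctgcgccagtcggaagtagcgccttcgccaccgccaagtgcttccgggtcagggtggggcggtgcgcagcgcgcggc
Matches occurred in genes of both directions, 109 bases before the start in Nasp, 78 in Mthfd1 and 121 in Trip13. A match describes letters, not binding.

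Over the 373 genes higher on both scales, 283 had a promoter entry, and 21.6% of these held a GATA match within 250 bases before to 50 bases after the start. The share was 16% among 617 of the 824 lower genes, 18.8% among 9094 of the tested genes and 30.2% among all 27025 promoters of the table. The letters CTG followed after 7, 8 or 9 free bases by GATA, the E-box and GATA composite bound by the LDB1 complex, stood in 8.13% of higher, 5.19% of lower and 4.86% of tested genes' promoters, and in 7.22% of all. Its GATA core can fall inside a GATA match. E2F letters (TTTCCCGC, TTTGGCGC, TTTCGCGC or TTTGCCGC) stood in 1.77% of higher and 7.78% of lower genes, beside 4.33% of tested genes and 2.33% of all promoters. The MYC E-box CACGTG stood in 9.54% of higher and 15.7% of lower genes, beside 10.4% and 7.24%. The ETS letters CCGGAAG stood in 15.2% and 22.9%, beside 19.7% and 9.14%. For the CACCC box CCNCACCC the shares were 22.3% and 19.4%, beside 19.9% and 16.4%. For the CCAAT box they were 41.7% and 41.5%, beside 39.3% and 38.0%. Both strands were searched for each motif, and these shares were not tested. The median GC content was 61% in the higher, lower and tested genes but 52.7% in all promoters of the table.

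Adult alpha and beta globin RNAs were among the genes that separated the sides most widely. Hba-a1 stood at 5000, 4660 and 4670 CPM in control, 7650, 10700 and 10500 CPM in FL, 598, 739 and 1190 CPM in KD, and 629, 807 and 870 CPM in delta45. The lowest full-length library was 3.91-fold above the highest of the others, a margin computed with 0.5 CPM added to both values as for all margins given here. KD and delta45 overlapped, and the log2 change was 3.07 ± 0.169. Hbb-bs was 2050, 2190 and 2240 CPM in control, 7160, 11200 and 10300 CPM in FL, 114, 238 and 456 CPM in KD, and 626, 652 and 645 CPM in delta45. The 4 lines did not overlap, in the order FL, control, delta45 and KD. Hbb-bt, the other adult beta globin, was 1130, 1100 and 1140 CPM in control, 3770, 4110 and 3990 CPM in FL, 297, 290 and 451 CPM in KD, and 76.3, 102 and 104 CPM in delta45. Its order on the low-or-altered side was the opposite of that of Hbb-bs, with KD above delta45.

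Most of the other tested globins separated as well. Hbq1b, a theta globin, was 60.5 to 89.4 CPM (median 73.2) in the full-length libraries and 9.41 to 25.6 CPM (median 19.2) in the others. Hba-a2, the second adult alpha globin copy, was 2.35 to 7.9 against 0.108 to 1.02 CPM, and Hba-x, the embryonic zeta globin, 0.764 to 3.31 against 0 to 0.35 CPM. Hbq1a overlapped, at 0.642 to 2.5 against 0 to 0.832 CPM. In all, 6 of 7 tested globins were separated and higher (background 5.05%), edgeR called all 7 higher, and the list's median log2 change was 3.31, beside -0.0177 over all genes tested. Hba-a1 and Hba-a2, and Hbb-bs and Hbb-bt, are nearly identical pairs, so the split of reads between the copies is uncertain. Reads that matched several places were counted for no gene, so the low count of Hba-a2 may understate its level.

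Heme synthesis genes separated at the first and a late step of the pathway. Alas2 was 1510, 1640 and 1740 CPM in control, 4780, 5140 and 5570 CPM in FL, 347, 470 and 646 CPM in KD, and 309, 289 and 318 CPM in delta45. FL was highest, control was in between, and every library of the other side was below both (log2 2.91 ± 0.132, edgeR adjusted p = 4.13e-09). Ppox, which encodes protoporphyrinogen oxidase, was 175 to 261 CPM (median 207) against 53.2 to 83.5 CPM (median 74.6). Fech, the ferrochelatase that inserts iron, separated on the TMM scale only, at 328 to 1020 against 287 to 322 CPM. The 3 separated members were 16.7% of the 18 tested, and the others overlapped, among them Alas1, the ubiquitous counterpart of Alas2, at 21.7 to 46.2 against 18 to 36.5 CPM. edgeR called 7 members higher and 3 lower, and the list's median log2 change was 0.208. Uros (uroporphyrinogen synthase) was among the lower ones, at 12.5 to 43.2 against 29.3 to 76.7 CPM.

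Red cell membrane and skeleton genes were mostly higher in the full-length lines, with 9 of 28 tested members separated and higher (32.1%) and 1 separated and lower (3.57%). Slc4a1, the anion exchanger band 3, was 43.3, 69.8 and 59.5 CPM in control, 30.8, 30 and 30.6 CPM in FL, 1.46, 7.81 and 13.4 CPM in KD, and 2.06, 1.79 and 2.12 CPM in delta45. Control was highest, and the KD libraries spread from below to well above the delta45 level. Add2 was 229, 243 and 214 CPM in control, 102, 109 and 105 CPM in FL, 21.5, 60 and 50.4 CPM in KD, and 26.3, 22.5 and 22.2 CPM in delta45. FL stood between control and the low-or-altered lines, which overlapped. Epb41, which encodes the skeleton protein band 4.1, was 479 to 963 against 234 to 425 CPM. Tmod1, which caps the short actin filaments of the skeleton, was 106 to 217 against 36.6 to 62 CPM. Aqp9, Ermap and Tspan33 were also separated and higher, and Aqp1, a water channel, was so on the TMM scale only. Dmtn, which encodes the actin-bundling dematin, was the lower member, at 94.4 to 128 against 148 to 301 CPM. Sptb (a spectrin) and Ank1 (an ankyrin) overlapped. edgeR called 18 members higher and 4 lower, with a median log2 change of 0.718.

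**Figure D1:**
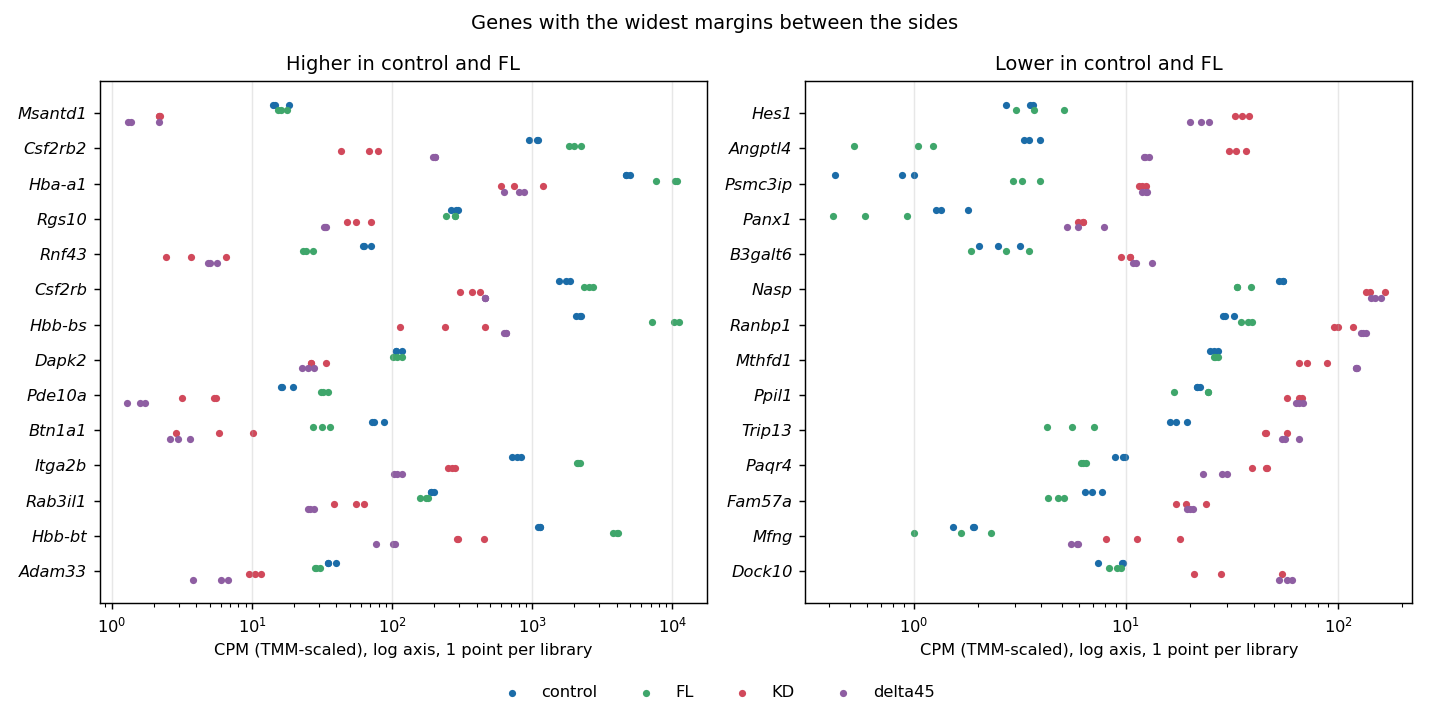
CPM (TMM-scaled, log axis) of the 28 named genes with the widest margins, 14 in each direction, with 1 point per library and 1 colour per line. In every gene the control and FL points lie on one side of all KD and delta45 points, while within a side the lines often differ, as for Hbb-bt and Itga2b.

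Other erythroid maturation genes separated in 6 of 35 tested members (17.1%), all higher. Mxi1, an antagonist of MYC that rises in late erythroblasts, was 287, 318 and 292 CPM in control, 213, 216 and 212 CPM in FL, 88.1, 126 and 104 CPM in KD, and 52.9, 55.9 and 57.9 CPM in delta45. The 4 lines did not overlap, in the order control, FL, KD and delta45. Fam210b, a mitochondrial protein of erythroid heme synthesis, was 185 to 559 against 94.5 to 134 CPM. Tent5c, a poly(A) polymerase, was 205 to 350 against 93.8 to 161 CPM, and Kdm7a, a histone demethylase, 38.7 to 77.5 against 9.19 to 27.8 CPM. Bpgm, which makes the 2,3-bisphosphoglycerate that tunes hemoglobin, and Hemgn (hemogen) were the remaining separated members. edgeR called 20 members higher and 4 lower, with a median log2 change of 0.431. That median was 0.093 for control against KD and 0.952 for FL against delta45, which share no library. Among iron handling genes 3 of 23 were separated and higher (13%), 8 were called higher and 7 lower. Of the 3, Ncoa4, the receptor that delivers ferritin to autophagy, met both scales at 33.4 to 68.5 against 14.3 to 23.6 CPM. Bach1 and Fbxl5 did so on the TMM scale only, and Tfrc, the transferrin receptor, overlapped at 632 to 6800 against 513 to 2480 CPM.

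The transcription factors of the LDB1 complex did not separate the sides. Gata1 was 762 to 971 CPM (median 869) against 465 to 950 CPM (median 527). Tal1 was 498 to 1840 against 745 to 1610 CPM, and Lmo2 49.7 to 81.4 against 73.6 to 113 CPM. Klf1, an erythroid factor that works beside the complex, was 194 to 283 CPM (median 223) against 140 to 318 CPM (median 255). All of these ranges overlapped, and 1 of 26 tested members of the list was separated (3.85%, below the 6.45% of all genes). That member was Ssbp3, a single-stranded-DNA-binding protein that binds LDB1, and it was lower. Ssbp3 was 101, 109 and 109 CPM in control, 84.6, 88.4 and 86.7 CPM in FL, 158, 213 and 199 CPM in KD, and 118, 125 and 123 CPM in delta45. KD was highest and FL lowest, and the margin was 1.08-fold. edgeR called 8 members higher and 8 lower, with a median log2 change of 0.0564. Cbfa2t3, which encodes the co-repressor ETO2, was called higher (edgeR adjusted p = 4.1e-07) with overlapping ranges of 278 to 778 and 177 to 303 CPM.

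In the list of FOG1, the cofactor of GATA1, and the NuRD chromatin remodeling complex, 1 of 16 members was separated and higher (6.25%) and 2 were separated and lower (12.5%), and edgeR called 4 higher and 8 lower. Mbd2, a methyl-CpG-binding subunit, was 160, 171 and 171 CPM in control, 161, 154 and 157 CPM in FL, 89.1, 89.3 and 88.5 CPM in KD, and 95.5, 93.4 and 79.5 CPM in delta45. The lines of each side overlapped, and neither control against FL (edgeR adjusted p = 0.418) nor KD against delta45 (0.944) was called for Mbd2. Rbbp7, a histone-binding subunit, was lower at 168 to 256 against 302 to 389 CPM, and Hdac2, a histone deacetylase, at 84.3 to 118 against 128 to 167 CPM. Zfpm1, which encodes FOG1, overlapped at 864 to 2100 against 758 to 1470 CPM. In the wider list of chromatin regulators, Ezh1 and Rnf2 (Polycomb proteins) were separated and higher. Uhrf1 and Dnmt3b (DNA methylation) were separated and lower. Among 48 tested members that is 4.17% in each direction, below the 5.05% and 6.45% of all genes, and edgeR called 9 higher and 17 lower. Rnf2 overlaps Trmt1l in the annotation, and without strand their reads cannot be told apart.

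Beta chains of the receptors of interleukin 3 and related cytokines were higher in the full-length lines. Csf2rb2 was 949, 1080 and 1090 CPM in control, 2240, 1820 and 1990 CPM in FL, 43.3, 68.8 and 79.4 CPM in KD, and 202, 201 and 197 CPM in delta45. The 4 lines did not overlap, and the margin between the sides was 4.69-fold (log2 3.68 ± 0.136). Csf2rb, the neighbouring gene, was 1550, 1730 and 1870 CPM in control, 2690, 2340 and 2530 CPM in FL, 305, 369 and 424 CPM in KD, and 459, 459 and 459 CPM in delta45. The order of the lines was the same as for Csf2rb2, but the 2 genes are close copies and the split of their reads is uncertain. Tyk2 (a Janus kinase) at 283 to 433 against 152 to 194 CPM and Stat3 at 261 to 343 against 155 to 214 CPM were also separated. Jak1 and Jak2 separated on the TMM scale only, which made 6 of 31 tested members of the cytokine receptor and JAK-STAT list (19.4%). Epor, the erythropoietin receptor, overlapped at 332 to 854 against 278 to 684 CPM. edgeR called 17 members higher and 4 lower, with a median log2 change of 0.412.

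Megakaryocyte genes separated in 3 of 16 tested members (18.8%), all higher. Itga2b, the integrin alpha IIb chain, was 773, 829 and 719 CPM in control, 2080, 2200 and 2130 CPM in FL, 252, 268 and 279 CPM in KD, and 103, 109 and 117 CPM in delta45. The 4 lines did not overlap. Plek, which encodes pleckstrin, was 719 to 4880 CPM against 370 to 520 CPM, and in edgeR FL exceeded control for it by a log2 of 2.45 (adjusted p = 8.95e-08). Treml1, a receptor of platelet granules, was 2.71 to 6.92 against 0.529 to 0.962 CPM. Pf4, platelet factor 4, overlapped at 64.5 to 586 against 22.6 to 526 CPM. edgeR called 10 members higher and 1 lower. The median log2 change was 0.856, made of -0.0877 for control against KD and 1.91 for FL against delta45.

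The other genes with the widest higher margins belong to no single list. Msantd1, of little described function, had the widest margin, 5.47-fold. It was 14.6, 18.3 and 14.2 CPM in control, 15.3, 17.8 and 16.2 CPM in FL, 2.16, 2.17 and 2.19 CPM in KD, and 1.31, 2.17 and 1.36 CPM in delta45. Lines of 1 side overlapped, and control and FL differed in edgeR by a log2 of 0.07 (adjusted p = 0.775). Rgs10, a regulator of G-protein signalling, was 244 to 293 against 32.7 to 70.7 CPM. Dapk2, a calcium-regulated kinase, was 102 to 117 against 22.6 to 34 CPM. These 2 genes had nearly the same level in control and FL. Rnf43, a ubiquitin ligase for Wnt receptors, was 71.1, 62.9 and 61.8 CPM in control but 27.2, 23.2 and 24.3 CPM in FL, above 2.45 to 6.48 CPM on the other side. Btn1a1 (a butyrophilin) was likewise higher in control than in FL, at 71.6 to 87.1 and 27.1 to 35.9 CPM, above 2.62 to 10.2 CPM. Pde10a (a cyclic nucleotide phosphodiesterase), Rab3il1 (an exchange factor for Rab proteins) and Adam33 (a metalloprotease) completed the 14, with margins of 2.73, 2.51 and 2.38-fold.

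Genes of glycolysis and the hypoxia response were called higher in 27 of 34 tested members and lower in 0, with a median log2 change of 0.993. Of the 34, 5 were separated (14.7%), Pfkfb4, Vegfa, Mxi1 and Gapdh on both scales and Bnip3, a mitophagy receptor, on the TMM scale only. Pfkfb4, a regulator of glycolytic flux, was 44 to 64 against 13.1 to 26.4 CPM. Vegfa was 442, 503 and 345 CPM in control, 476, 424 and 442 CPM in FL, 272, 312 and 154 CPM in KD, and 115, 113 and 106 CPM in delta45. For Vegfa KD was intermediate and delta45 was lowest. The median log2 change of the list was -0.0649 for control against KD, 2.06 for FL against delta45 and -2.27 for delta45 against KD. Aldoa (aldolase) overlapped at 3420 to 5400 against 279 to 3590 CPM. Gapdh has many near-identical pseudogenes, and its 14.2 to 23.3 against 3.37 to 10.1 CPM are uncertain. Of 32 autophagy and organelle clearance genes, Foxo3 (500 to 1260 against 257 to 420 CPM) and Wipi1 were separated and higher on both scales, Bnip3 and Fundc1 on the TMM scale only (12.5% in all).

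DNA replication genes were lower in the full-length lines, and FL was lowest of all. Of 40 tested replication and mitosis genes, 16 were separated and lower (background 6.45%) and 0 higher. Mcm6, a subunit of the replicative helicase, was 114, 110 and 120 CPM in control, 45.6, 44.1 and 52.4 CPM in FL, 243, 220 and 234 CPM in KD, and 381, 355 and 366 CPM in delta45. Rrm2, the ribonucleotide reductase subunit that supplies deoxynucleotides, was 45, 43.2 and 46.7 CPM in control, 12.7, 15.3 and 12 CPM in FL, 138, 109 and 88.6 CPM in KD, and 94, 101 and 108 CPM in delta45. The 4 lines did not overlap for Mcm6, and KD and delta45 overlapped for Rrm2. Mcm7 (38.4 to 87.5 against 173 to 233 CPM) and Cdc45 (13.9 to 55.8 against 88.6 to 135 CPM) were next by margin. Among the other separated members were Mcm3, Mcm4, Mcm5, Mcm10, Gins1, Gins2, Orc1, Cdc6, Pcna, Rfc3 and Tyms, which serve origin licensing, the fork and nucleotide supply. Mcm7 overlaps Ap4m1 in the annotation, and without strand their reads cannot be told apart.

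The mitotic members of that list overlapped. Plk1, a mitotic kinase, had a log2 change of 1.13 for control against KD and -2.29 for FL against delta45, and Ccna2 (cyclin A2) had 1.03 and -2.59. edgeR called 39 of the 40 lower and 1 higher, the histone variant gene Cenpa. The median log2 change was -1.17, from 0.0117 for control against KD and -2.48 for FL against delta45. The separated members were lower in both pairs. For Mcm6 the pair changes were -1.02 and -2.95, and for Rrm2 -1.31 and -2.93. Of 25 cell cycle inhibitors and G1 cyclins, 2 were separated and higher (8% against 5.05% of all genes) and 0 lower, and edgeR called 10 higher and 7 lower. Cdkn1b (p27) was 182, 189 and 238 CPM in control, 139, 151 and 142 CPM in FL, 82.3, 89.9 and 73.5 CPM in KD, and 61.2, 56.1 and 51.2 CPM in delta45. Gadd45a, a stress-induced growth arrest gene, was 150 to 246 against 41.2 to 76.4 CPM. Cdkn1a (p21) overlapped at 22.7 to 37.5 against 27.1 to 136 CPM.

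**Figure D2:**
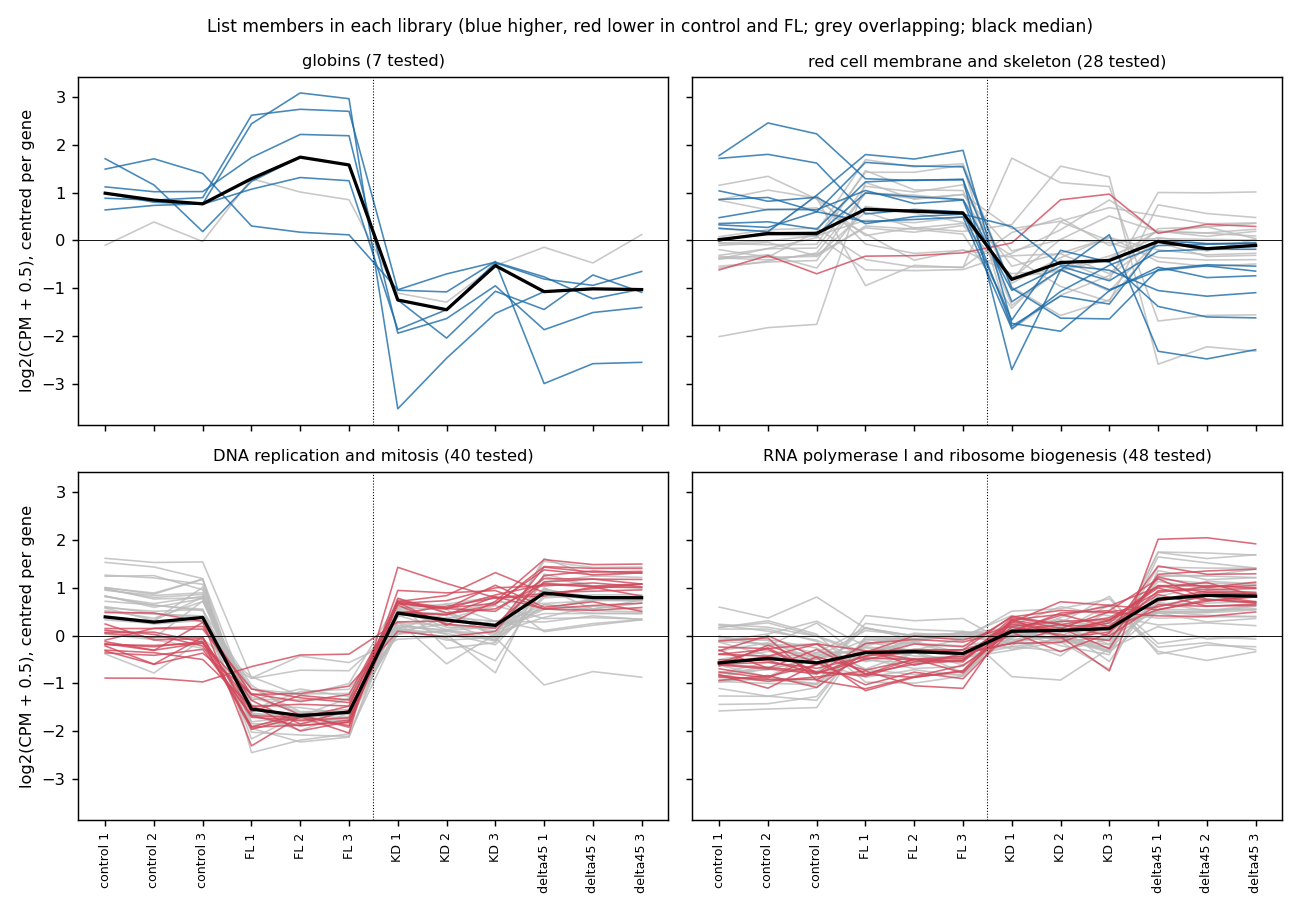
Each line is 1 gene, as log2(CPM + 0.5) less the gene's mean over the 12 libraries, for 4 lists, with separated genes in blue (higher in control and FL) or red (lower), overlapping genes in grey and the list's median in black. Globins are high in all 6 full-length libraries, replication and mitosis genes are low in FL alone except for the red genes, and ribosome biogenesis genes are low in both control and FL.

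Ribosome biogenesis genes were lower in both full-length lines. Of 48 tested genes of RNA polymerase I and ribosome assembly, 19 were separated and lower and 0 higher, and edgeR called 44 lower and 1 (Taf1d) higher. Nop16, a nucleolar protein of the large subunit pathway, was 36.7, 34.9 and 33 CPM in control, 30.8, 38.1 and 39 CPM in FL, 72.4, 65.8 and 72.6 CPM in KD, and 105, 114 and 116 CPM in delta45. Control and FL overlapped, and delta45 was above KD. Noc4l (56.3 to 80.2 against 119 to 131 CPM), Mrto4 (9.06 to 13.6 against 19.9 to 29 CPM) and Wdr43 (47 to 66.5 against 91.2 to 177 CPM), all ribosome assembly factors, followed by margin. Fibrillarin (Fbl), dyskerin (Dkc1), Nop2, Nop58, Gar1 and Nhp2, which modify ribosomal RNA, were also separated and lower. The median log2 change was -0.939, with -0.637 for control against KD and -1.23 for FL against delta45. Cytosolic ribosomal protein genes went otherwise, with 1 of 80 tested members separated in each direction and 48 called higher against 11 lower. Rpl21, the lower one, has near-identical copies and is uncertain, and Rps3a3, the higher one, was scarce and met the TMM scale only.

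Myc itself was separated and lower. It was 113, 114 and 109 CPM in control, 103, 127 and 125 CPM in FL, 144, 236 and 199 CPM in KD, and 419, 479 and 477 CPM in delta45. Control and FL overlapped, KD lay just above them with a margin of 1.13-fold, and delta45 was far above. Srm, the spermidine synthase of the polyamine pathway, was 15 to 46.7 against 66 to 131 CPM. With Mxi1, which was higher, these were the 3 separated members among 19 of the MYC network and polyamine synthesis.

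Genes of one-carbon metabolism and of the amino acid response run by ATF4 were separated and lower in 7 of 26 tested members (26.9%) and higher in 0. Mthfd1, which interconverts folates, was 27.3, 25.9 and 25 CPM in control, 26.4, 25.9 and 27.1 CPM in FL, 88.4, 71.7 and 65.3 CPM in KD, and 122, 123 and 122 CPM in delta45. Control and FL overlapped at a nearly constant level, and the margin was 2.37-fold. Chac1, a glutathione-degrading enzyme, was 4.35 to 10.2 against 14.7 to 34.8 CPM. Slc7a5, an amino acid transporter, was 112 to 171 against 210 to 445 CPM, and Atf4 itself 250 to 388 against 441 to 637 CPM. Shmt1, Shmt2 and Slc7a11 were the others. Asns (asparagine synthetase), a target of ATF4, went the other way with a log2 change of 0.75 and overlapping libraries, and edgeR called 16 members lower and 3 higher. Antioxidant enzymes were separated and lower in 4 of 24 tested members (16.7%), and edgeR called 12 lower and 7 higher. Nqo1, a quinone reductase, was 5.69 to 10.5 against 17.9 to 34.3 CPM. Gsr (glutathione reductase), Prdx1 (a peroxiredoxin) and Txnrd1 (thioredoxin reductase) had margins of 1.31, 1.25 and 1.1-fold.

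Genes that make mitochondrial proteins were separated and lower in 9 of 76 ribosomal proteins (11.8%) and 5 of 21 tRNA synthetases (23.8%), beside 6.45% of all genes, with 0 higher in either. Mrpl12 was 37.6 to 62 against 78.9 to 115 CPM, and Yars2, the tyrosyl-tRNA synthetase, 13.3 to 17.3 against 26.9 to 37.2 CPM. Mitochondrial carriers were separated and lower in 5 of 40 tested members (12.5%) and higher in 2 (5%), with Slc25a10 (dicarboxylates) at 11.5 to 26.7 against 41.1 to 57.4 CPM. Respiratory chain complex I (36 tested) and ATP synthase (17 tested) had 0 separated members, and edgeR called 10 and 3 of them higher and 4 and 2 lower. Differences between these lists were not tested. Proteasome subunits (3 of 40 lower) and Mediator subunits (2 of 28 lower) were separated in shares near the background of 6.45%. Of the 40 proteasome subunits edgeR called 18 lower and 3 higher, and of the 28 Mediator subunits 8 lower and 1 higher, beside 28.9% lower over all genes tested.

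**Figure D3:**
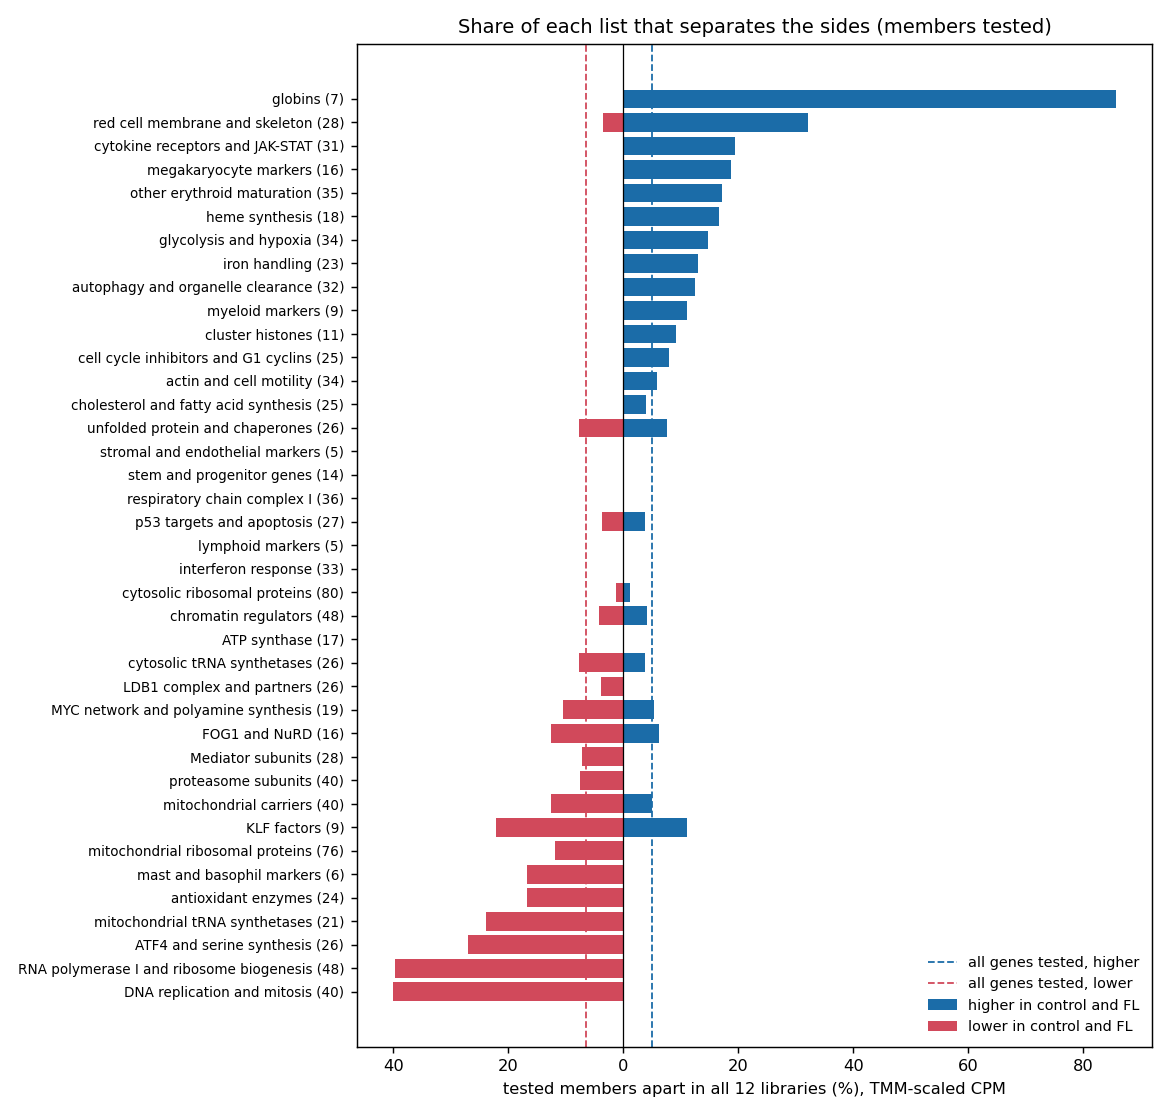
Percent of the tested members of each list (number tested in brackets) that were separated on the TMM scale, higher in control and FL to the right and lower to the left, with dashed lines at the share of all genes tested (5.05% and 6.45%). Globins reach 85.7% on the higher side, and replication with 40% and ribosome biogenesis with 39.6% reach furthest on the lower side.

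Hes1, a transcriptional repressor induced by Notch signalling, had a lower margin of 3.66-fold. It was the widest among genes that reached 5 CPM in every library of the higher side, clone, predicted, pseudogene and histone names left out, while the widest over all lower genes was 4.93-fold. It was 3.64, 2.71 and 3.52 CPM in control, 3.02, 5.11 and 3.7 CPM in FL, 35.3, 38.1 and 32.6 CPM in KD, and 20, 22.5 and 24.7 CPM in delta45. Control and FL overlapped and KD was highest. Mfng, a fringe glycosyltransferase that modifies Notch receptors, was 1 to 2.32 against 5.53 to 18 CPM. Angptl4, an inhibitor of lipoprotein lipase, was 3.32 to 3.93 CPM in control, 0.521 to 1.23 CPM in FL, 30.5 to 36.9 CPM in KD and 12.2 to 12.9 CPM in delta45. Nasp was 54.7, 52.6 and 54.9 CPM in control, 33.3, 33.5 and 39 CPM in FL, 141, 136 and 166 CPM in KD, and 159, 143 and 149 CPM in delta45, with overlap only between KD and delta45. Trip13 was 16.2 to 19.3 CPM in control and 4.27 to 7.06 CPM in FL, against 45.3 to 65.1 CPM. Psmc3ip, a meiotic recombination cofactor, was 0.428 to 3.95 against 11.5 to 12.6 CPM, and Panx1, a membrane channel, 0.416 to 1.8 against 5.29 to 7.92 CPM. Ranbp1 (nuclear transport) was 28.8 to 39.3 against 95.9 to 135 CPM and Dock10, an exchange factor for small GTPases, 7.42 to 9.64 against 20.9 to 60.7 CPM. B3galt6 (proteoglycan synthesis), Ppil1 (a spliceosomal isomerase), Paqr4 and Fam57a had margins of 2.5, 2.34, 2.26 and 2.16-fold. Paqr4 overlaps Pkmyt1 in the annotation, and reads of that pair cannot be told apart without strand.

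Stem and progenitor genes and interferon response genes had no separated member. Of 14 tested stem and progenitor genes edgeR called 5 higher, 6 lower and 3 in neither direction. Myb was called lower (log2 -2.67 ± 0.234) but overlapped, at 2.06 to 67.6 against 35.3 to 108 CPM. Spi1, which encodes the myeloid factor PU.1, was called higher (log2 1.60 ± 0.115) and overlapped, at 11.8 to 62.4 against 2.39 to 28.2 CPM. Of 33 tested interferon response genes 11 were called lower and 0 higher, beside 28.9% and 26.5% of all genes. The KD libraries spread widely in this list, Isg15 ranging from 20.6 to 2110 CPM among them.

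Most separations were narrow. The median margin was 1.15-fold for the 648 higher and 1.16-fold for the 828 lower genes on the TMM scale. A margin of 1.5-fold was reached by 100 higher and 112 lower genes, and of 2-fold by 27 and 28. At the edge of the rule, Wdr7 was just inside on the higher side (97.6 to 131 against 48.6 to 97.6 CPM) and Tmem234 just outside (148 to 196 against 79.9 to 148 CPM). On the lower side Pole3 was just inside (59.1 to 80.9 against 80.9 to 130 CPM) and Mia2 just outside (55.8 to 81.6 against 81.6 to 139 CPM). Separation was rarer among scarce genes, with 6.42% of the 3210 genes of lowest mean CPM (0.261 to 8.82 CPM) separated in either direction. The share was 13.4, 12.9 and 13.2% in the successive groups of 3209 genes above them.

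The change between control and KD and that between FL and delta45 share no library, and each gene's 2 changes can be compared. These comparisons called 49.7% and 52.8% of the tested genes in edgeR. Over all 12837 genes they correlated weakly across genes (Pearson 0.0554, Spearman 0.123), and genes are not independent replicates. Genes called higher in both pairs numbered 1072, which is 34.6% of those higher in control against KD and 32.4% of those higher in FL against delta45. The backgrounds are 25.8% and 24.1%. Genes called lower in both numbered 1203 (36.6% and 34.7%, with backgrounds of 27.0% and 25.6%). In the other pairing, control against delta45 (64.4% called) and FL against KD (58.0% called), the correlation was negative (Pearson -0.267, Spearman -0.203). There the genes called higher in both were 851 (20.4% and 25.2%, with backgrounds of 26.3% and 32.5%), and those lower in both 1118 (27.3% and 27.5%, with 31.7% and 31.9%).

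**Figure D4:**
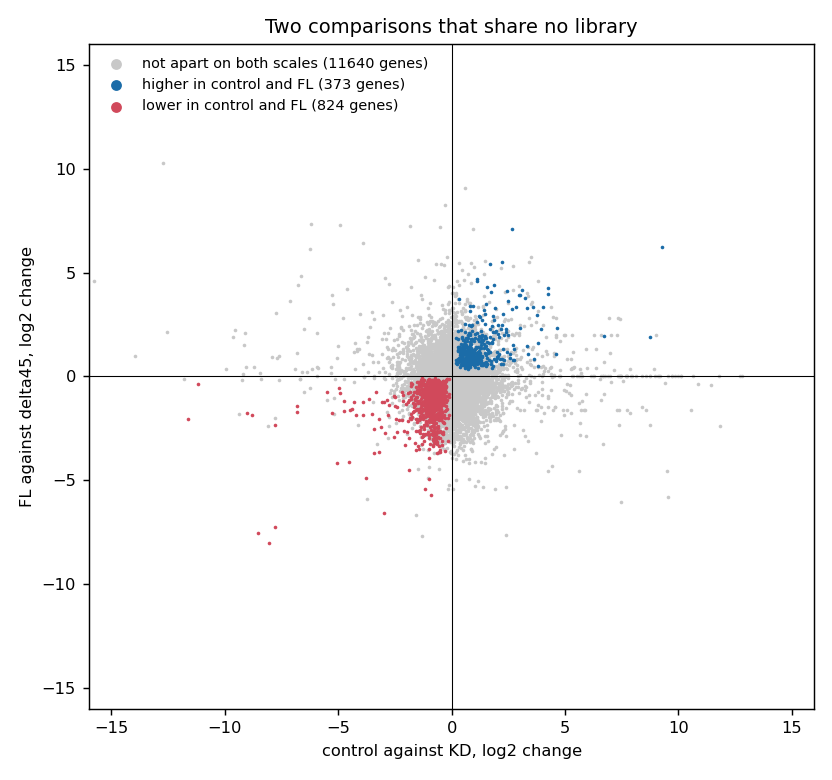
Log2 change of each tested gene for control against KD (horizontal) and FL against delta45 (vertical), 2 comparisons that share no library, with the genes separated on both scales in blue (373 higher) and red (824 lower) and the other 11640 in grey. The grey cloud shows little slope, and the coloured genes fill opposite quadrants as the rule requires.

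Some separated genes moved by unequal amounts in the 2 pairs, in a share no larger than that of all genes tested. A test of the difference of the pair changes, an interaction term in edgeR, called 282 of the 648 higher genes (43.5%) and 384 of the 828 lower genes (46.4%), beside 48.5% of all genes tested. For Hbb-bt the log2 change was 1.70 for control against KD and 5.40 for FL against delta45, a difference of -3.70 ± 0.24 (adjusted p = 9.43e-08). For Itga2b the changes were 1.54 and 4.28, and for Pde10a 1.89 and 4.39. Rnf43 went the other way with 3.92 and 2.27. Among the lower genes, Trip13 changed by -1.49 and -3.35 and Psmc3ip by -3.90 and -1.88. Within a side, FL against control was not called for 367 of the higher and 423 of the lower genes, and delta45 against KD not for 360 and 453. Neither was called for 204 higher and 241 lower genes. Those comparisons called 59.3% and 59.9% of all genes tested, and a miss does not show that the lines were alike. Among the higher genes the top library was from control in 331 and from FL in 317, and among the lower genes it was from KD in 373 and from delta45 in 455.

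Separated genes often lay beside each other on the chromosome. In the order of tested genes in GENCODE M21, 57 of 368 placed higher genes (15.5%) had a separated higher gene as a neighbour, against 5.76% of all 12490 placed genes. For lower genes the counts were 164 of 811 (20.2%) against 12.3%. There were 31 adjacent pairs of higher genes, among them Hba-x and Hba-a1, Hba-a1 and Hbq1b, Hbq1b and Hba-a2, Hbb-bt and Hbb-bs, and Csf2rb2 and Csf2rb. Pairs of lower genes numbered 90, among them Mcm3 with Paqr8 and Hnrnpab with Nhp2. Gene models overlapped in 6 and 15 of these pairs, where reads can be shared.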

How the data were processed

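Polyadenylated RNA of 12 induced MEL libraries was analysed, 3 each of control, FL, KD and delta45. Per the labels' protocols, an RNeasy kit gave the RNA and the TruSeq RNA kit V2 the libraries. That kit is known not to keep strand. The submitters' processing notes name build mm9 and the programs DESeq 1.10.1, HTSeq 0.5.3p9, TopHat 1.4.1 and cutadapt 1.1, whose settings, like the annotation, were not stated in the sources used here. The authors deposited raw counts of reads per Ensembl gene, not normalized, with 5 closing lines that name no gene. Neither library sizes nor tests used those lines, which held 46.307 to 57.694% of all tallied counts. Symbols from the supplied table matched 32919 of 37991 genes. Replicates correlated at 0.9568 to 0.9961 in log2 CPM, and no pair agreed within counting noise.

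Genes were kept by filterByExpr and tested with edgeR 4.0.16 (glmQLFit, glmQLFTest, TMM scaling) in R 4.3.3, with 1 mean per line and all 12 libraries in the fit. Calls were made at a Benjamini-Hochberg adjusted p under 0.05 over all genes tested. The code was tested on simulated data. The lines, gene lists (790 entries, 783 matched) and rules were chosen with earlier results of these data known. Named genes were Ldb1, all tested globins, the 14 genes with the widest margin in each direction that reached 5 CPM in every library of the higher side, and up to 4 separated members of each list by margin. Clone, predicted, pseudogene and histone names were left out of the widest margins. Other defining members of a list are given with their values. A few genes that these rules name are not reported here. List counts and medians are given with those of all genes tested, with no set test. Same-numbered libraries deviated together, with every correlation over 0.1, for FL and KD (0.121 to 0.291) and for KD and delta45 (0.102 to 0.294), and not for the other 4 pairs of lines. The labels do not say what a number marks. DESeq2 1.42.0, other scalings, filters, models and left-out libraries were tried as alternatives. Promoters came from RefSeq's GRCm38.p6 table and gene order from GENCODE M21, matched by symbol and Ensembl ID.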

Additional observations from a re-analysis of the deposited data

Results flagged for a closer look

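Among the 33 genes made up of Ldb1, the globins and the 28 widest margins, 14 changed by different amounts in control against KD and in FL against delta45, by edgeR's test of the difference itself (adjusted p under 0.05; 48.5% of all tested genes were called). The values are the log2 change of the first pair less that of the second, and a negative value of a gene that was higher in the full-length lines means a wider gap in FL against delta45. Among those higher genes the difference was -3.70 for Hbb-bt, -2.74 for Itga2b, -2.50 for Pde10a, -1.14 for Hba-a1, -0.81 for Rab3il1 and -0.73 for Rgs10. It was 1.65 for Rnf43 and 0.69 for Csf2rb2, which had the wider gap in control against KD. Among the genes that were lower in the full-length lines, the gap was wider in control against KD for Psmc3ip (-2.02) and Hes1 (-0.90). It was wider in FL against delta45 for Trip13 (1.86), Panx1 (1.26), Mthfd1 (0.68) and Nasp (0.64). Hbb-bt and Hba-a1 each have a near-identical copy, and Csf2rb2 a close one. The split of reads between copies is uncertain, and so are these differences to that extent.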

How the results depend on the processing

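Of the 113 named genes, all kept their direction and call with RLE scaling, library totals only, DESeq2 and no low-count filter. All did so too with each of the 12 libraries left out in turn. At 5 CPM or more in 3 libraries 109 could be tested and kept theirs. Most named genes were chosen for being separated on both scales and called in this contrast. Kept calls under other scalings, DESeq2, filters or left-out libraries were therefore largely fixed in advance. Tested against a 1.5-fold change, 95 of the 113 stayed called. With 1 mean for each side Hbq1a was no longer called (log2 1.87, adjusted p = 0.0558), and the counts over the sides fell to 1285 higher and 1380 lower. Library totals only gave 378 separated genes higher and 1324 lower, and 2099, 2048 and 2377 genes called higher in FL against delta45, against KD and against control; the share of called genes that were higher over the sides went from 47.9 to 32.4%, and of separated genes from 43.9 to 22.2%. A margin of 1.5-fold left 100 and 112 separated genes. Testing against a 1.5-fold change left 964 higher and 1214 lower over the sides, 1289 and 1098 for control against KD, 1452 and 1781 for FL against delta45, 2529 and 2067 for control against delta45, 1358 and 2152 for FL against KD, 1865 and 1653 for the difference of the pairs, 1432 and 2403 for FL against control, and 1544 and 1962 for delta45 against KD. Leaving out 1 library gave 673 to 853 separated genes higher and 806 to 1004 lower, and 3084 to 3947 called higher and 3289 to 3854 called lower over the sides. Fewer libraries ease the separation rule, so separated counts near or above those of all 12 were largely fixed in advance. The 250 bases before the start alone gave GATA shares of 19.8, 14.7 and 17.2% and E2F shares of 1.77, 5.83 and 3.58% in higher, lower and tested genes. Depth limits the values of scarce genes such as Hba-x and Hbq1a.

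Of 18 same-numbered pairs of libraries across lines, 7 had a correlation of deviations under 0.1 (lowest -0.255, median 0.148), 6 of them with control and 1 between FL and delta45 (0.0536). With the replicate number as a block, 3515 genes were called higher and 3744 lower over the sides, where no named gene's call changed. For the lines whose numbers paired, the block gave 3514 higher and 4113 lower genes for FL against KD with no named gene's call changed, and 3888 and 3961 for delta45 against KD, where Prdx1 became called.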

Other observations

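Separated genes were unevenly spread over chromosomes. On chromosome 13, 63 of 415 tested genes (15.2%) were lower in every full-length library on both scales and 3 were higher, and its median log2 change was -0.35 (control against KD -0.25, FL against delta45 -0.44). Chromosomes 15 and 16 each had 10.9% lower, beside 6.42% of all tested genes on both scales.

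Notch pathway genes were looked up after their values were seen, so they carry no weight as a set. Of 22 tested members 4 were separated and lower, Hes1, Mfng, Lfng and Jag2, beside 6.45% of all genes tested. Rbpj and Dtx3, 2 of the 22, were separated and higher, beside 5.05%. In either direction 12 were called, near the 55.4% of all genes tested. In the Notch pathway Lfng, a fringe glycosyltransferase like Mfng, was 21.5 to 26.4 CPM in the full-length libraries and 48.6 to 94.8 CPM in the others. The ligand gene Jag2 was 10.2 to 14.1 against 15.4 to 29.3 CPM. Rbpj, the DNA-binding factor of the pathway, was higher at 16.5 to 29.9 against 5.64 to 13.3 CPM, and Dtx3, a deltex family gene, at 202 to 285 against 98.2 to 155 CPM.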
